A study of Mus musculus with 4 samples.

Results

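The BMP inhibitors described here are 9 of the 55487 genes in the deposited count table: the secreted antagonists Nog, Grem1, Chrd, Chrdl1, Fst and Nbl1, the membrane protein gene Bambi, and the inhibitory SMAD genes Smad6 and Smad7. They were chosen by name, each symbol matched 1 gene ID of the table, and all 9 were among the 17128 genes with enough counts to be tested. They were followed in 4 RNA libraries of cells from the lower incisor of C57 mice at postnatal day 30, 2 from controls and 2 from conditional knockouts. The controls had the genotype Ptipf/f, with floxed Ptip alleles and no Cre named, and the knockouts had Ptipf/f;Sp7-cre. Floxed alleles were thus common to both groups, and Cre was present only in the knockouts. Sp7-cre is named for Sp7, a transcription factor of the bone and odontoblast lineages, so cells outside that lineage in the sample would keep Ptip. The sort took cells without CD45, Ter119 or Tie2 on their surface, proteins of leukocytes, erythroid cells and endothelium. The labels call them dental progenitor cells and give the tissue as dental pulp. They do not say whether the 2 libraries of a group came from separate animals or pools, so p-values measure only the spread between these libraries, which may be technical.

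Bone morphogenetic proteins (BMPs) are secreted ligands that bind pairs of type I and type II receptor kinases, which phosphorylate SMAD1, SMAD5 and SMAD9. These join SMAD4 and switch on targets such as the Id and Msx genes. The pathway is held in check at several levels. Noggin (Nog), gremlin 1 (Grem1), chordin (Chrd), chordin-like 1 (Chrdl1) and NBL1 bind BMPs outside the cell, and follistatin (Fst) binds mainly activins. BAMBI is a receptor-like membrane protein without a kinase domain. SMAD6 acts mainly on BMP signalling and SMAD7 on both BMP and TGF-beta signalling. Several of these inhibitors, among them Nog, Bambi, Smad6 and Smad7, are known as targets of the pathway they restrain. In the developing tooth, BMP4 from the mesenchyme and Msx1 take part in exchanges with the dental epithelium.

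Library totals ranged from 15154246 to 19142757 counts. Paxip1, the gene of PTIP, stood at 28.3 and 44.3 CPM (counts-per-million, scaled by the TMM method) in controls 1 and 2 and at 5.69 and 3.98 in knockouts 1 and 2. The main test was the quasi-likelihood test of edgeR. It gave Paxip1 an adjusted p of 0.150, and 0 of 17128 genes passed 0.05 after adjustment over all genes. At an unadjusted p under 0.05, edgeR had 1254 genes higher and 1694 lower in the knockout, and DESeq2 called 472 higher and 989 lower after adjustment. The sort did not remove all other cell types. All 9 erythroid markers in the table and 11 of 14 leukocyte markers lay below both controls in both knockouts, as did 24.9% of all tested genes. Leukocyte markers summed to 2019 to 6485 CPM in controls and 282 to 1033 in knockouts, and erythroid markers to 416 to 431 and 89.6 to 107. Endothelial markers summed to 895 to 1438 CPM in controls and 699 to 742 in knockouts, with 8 of 12 lower in both knockouts. Of 9 tested Schwann cell markers 5 were lower and 1 higher, with sums of 717 and 1175 CPM in controls and 330.4 and 306 in knockouts. All 10 cell cycle genes were lower in both knockouts, with sums of 1394 and 953 CPM in controls and 525 and 351 in knockouts. Tek, which encodes Tie2, still stood at 21.7 to 81.2 CPM. Dental epithelium markers, mostly the ameloblast gene Ambn, summed to 22769 to 63499 CPM in controls and 34878 to 42085 in knockouts. Ambn overlapped between the groups, but 6 of the 10 markers were lower and 0 higher in both knockouts (median log2 fold change -1.05). No marker of these lists that is in the table was at 0 in all libraries. The part of these cells and of the cell cycle in the values below was not tested, and in bulk RNA fewer cells of a type and less RNA per cell cannot be told apart.

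In both knockouts Nog, Nbl1, Bambi and Smad6 lay above the 2 controls and Chrd lay below them, and Grem1, Chrdl1, Fst and Smad7 overlapped between the groups. Of the 9 genes, 4 were thus higher and 1 lower without overlap, where 25.8% and 24.9% of all tested genes were so placed. Over only 9 genes, the share of higher ones was above that background and the share of lower ones below it. The groups stood at least 2-fold apart, lowest knockout over highest control, for 3 of the 9 (Nog, Bambi and Smad6), against 4.52% of all tested genes, and none stood 2-fold apart in the other direction (8.02% of all tested genes). None of the 9 passed edgeR's test. At an unadjusted p under 0.05, 4 of them were higher and 0 lower, against 7.32% and 9.89% of all genes. DESeq2 called those 4 (Nog, Nbl1, Bambi and Smad6), and none lower, where it called 2.72% of its 17378 genes higher and 5.69% lower. The median log2 fold change of the 9 was 0.31, beside 0.002 over all tested genes.

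**Figure D1:**
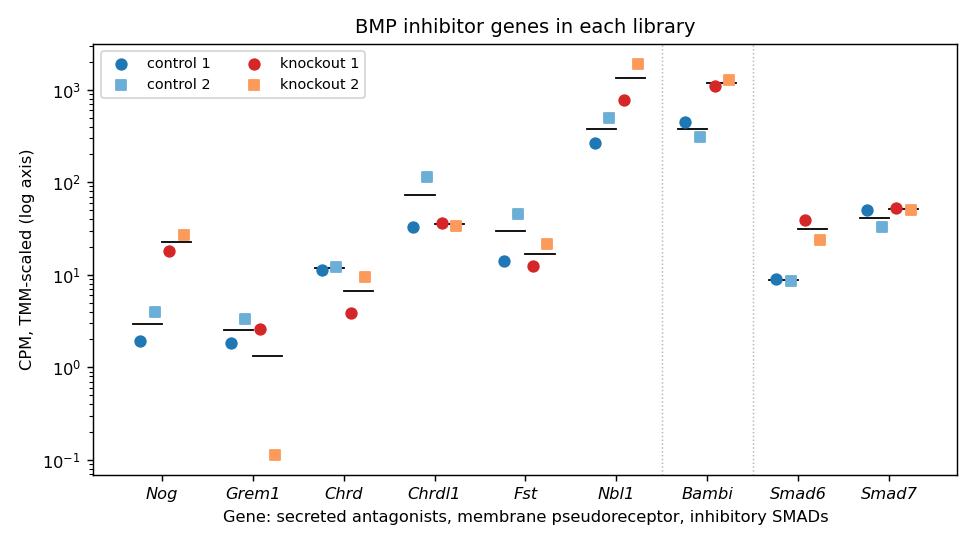
CPM of each BMP inhibitor gene in each of the 4 libraries on a log axis, with circles for replicate 1, squares for replicate 2 and black bars for group means (n = 2 each). Nog runs from 1.95 and 3.95 in controls to 18.1 and 27.1 in knockouts, and Grem1 has its lowest value, 0.112, in knockout 2.

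Promoter sequences are shown for a pair of genes that were higher in both knockouts, Nbl1 and Smad6, and for Chrd, which was lower in both, so that the stretches next to their start sites can be compared. Promoters of 4 of the 9 genes (Grem1, Nbl1, Smad6 and Chrd) were taken from RefSeq's promoter table (GRCm38.p6). The other members, some of them also higher in both knockouts, were left out of this comparison, and their promoters were not examined. Each sequence is the 250 bases before the RefSeq start, 5′ to 3′ on the gene's strand. Capitals mark GGCGCC, a GC-rich word bound by SMAD1 and SMAD5 and identical on both strands, and GTCT or its reverse complement AGAC, the basic SMAD-binding word.
Nbl1 (chr4:139092971-139093220, minus strand): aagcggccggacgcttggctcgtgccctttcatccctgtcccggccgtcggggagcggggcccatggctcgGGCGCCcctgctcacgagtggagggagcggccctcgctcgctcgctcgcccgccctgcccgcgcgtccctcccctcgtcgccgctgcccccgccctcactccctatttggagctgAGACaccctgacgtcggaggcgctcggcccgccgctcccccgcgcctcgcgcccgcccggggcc
Smad6 (chr9:64022060-64022309, minus strand): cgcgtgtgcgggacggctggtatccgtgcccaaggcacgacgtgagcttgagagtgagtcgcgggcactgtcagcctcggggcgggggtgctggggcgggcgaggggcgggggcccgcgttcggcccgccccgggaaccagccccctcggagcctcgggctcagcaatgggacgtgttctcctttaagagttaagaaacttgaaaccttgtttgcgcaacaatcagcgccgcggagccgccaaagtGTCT
Chrd (chr16:20732877-20733126, plus strand): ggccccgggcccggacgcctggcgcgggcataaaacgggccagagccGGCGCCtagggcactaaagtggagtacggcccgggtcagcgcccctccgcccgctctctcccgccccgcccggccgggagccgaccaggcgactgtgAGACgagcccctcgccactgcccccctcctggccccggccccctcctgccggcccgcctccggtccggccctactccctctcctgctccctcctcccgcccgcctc
The word GGCGCC occurred 1 time in the Nbl1 window, starting 179 bases before the start, 1 time in the Chrd window, 203 bases before it, and 0 times in the Smad6 window. It was thus present beside a gene that was higher in both knockouts and beside the gene that was lower in both. The Grem1 window, not shown, also held GGCGCC 1 time, 78 bases before its start, and GTCT or AGAC 4 times. The groups of Grem1 overlapped. Of 32851 promoters of this length in the table, 9.59% held GGCGCC, and 15.7% of those of tested genes did. GTCT or AGAC occurred 1 time in each of the 3 windows, 64 bases before the start in Nbl1, 4 in Smad6 and 106 in Chrd, and in 82.9% of all promoters. The 2 words cannot overlap each other. The windows were rich in G and C (77.6% in Nbl1, 66.8% in Smad6 and 78.0% in Chrd), against a median of 59.2% for tested genes. These are matches of letters and no measure of binding.

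Among the secreted antagonists, Nog had the largest fold change. Noggin binds BMP ligands with high affinity and keeps them from their receptors. The gene (ENSMUSG00000048616, GRCm38 chromosome 11 from 89300638 to 89302332, minus strand) was counted 28 times in control 1, 62 times in control 2, 353 times in knockout 1 and 483 times in knockout 2. On the CPM scale these were 1.95 and 3.95 against 18.1 and 27.1. Both knockouts lay far above both controls, and the lower knockout was 4.58 times the higher control. The control mean was 2.95 ± 1.41 CPM and the knockout mean 22.6 ± 6.35 CPM (SD, n = 2 for each). The fitted level was 7.63-fold higher (log2 fold change 2.93, SE 0.58). By edgeR the adjusted p was 0.152, and by DESeq2 0.000162. Of all tested genes, 0.993% had a fold change at least as high. With 1 library left out, the gene passed edgeR's test only without knockout 1 (9.22-fold, adjusted p = 0.00335). It did not pass without control 1 (5.80-fold, adjusted p = 0.0699), control 2 (11.3-fold, 0.0660) or knockout 2 (6.31-fold, 0.202).

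Nbl1, which encodes a secreted protein of the same cystine-knot family as gremlin, had the highest level per kilobase of exon among the 6 secreted antagonists of the set. The gene (ENSMUSG00000041120, chromosome 4 from 139082284 to 139092993, minus strand) stood at 266 and 491 CPM in controls 1 and 2 and at 775 and 1918 in knockouts 1 and 2. The groups did not overlap, but the knockouts differed from each other 2.48-fold and the lower knockout was 1.58 times the higher control. The level was 3.56-fold higher in the knockout (log2 fold change 1.83, SE 0.54, edgeR adjusted p = 0.187, DESeq2 adjusted p = 0.00981). Knockout 2 carried much of that difference, since the fold was 2.11 without it (edgeR adjusted p = 0.638) and 5.11 without knockout 1 (adjusted p = 0.0114). Per kilobase of annotated exon, Nbl1 lay above 98.8% of tested genes in the control mean and above 99.7% in the knockout mean.

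Chordin, a large secreted protein that binds BMP2, BMP4 and BMP7 and is cut by BMP1 and tolloid proteases, was the member with lower values in both knockouts. Chrd (ENSMUSG00000006958, chromosome 16 from 20733127 to 20742384, plus strand) stood at 11.3 and 12.2 CPM in controls 1 and 2 and at 3.90 and 9.36 in knockouts 1 and 2. The controls were close to each other, and the higher knockout lay just under them, with the lower control at 1.20 times its level. The log2 fold change was -0.82 (SE 0.60, edgeR adjusted p = 0.548), -0.31 without knockout 1 and -1.54 without knockout 2. Exons of Chrd share 239 bases with Thpo on the opposite strand, and such libraries do not mark strand. Thpo itself had 0 to 11 counts per library, against 76 to 191 for Chrd.

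Chrdl1, Fst and Grem1 gave no separation of the groups. Chrdl1, which encodes a chordin-like BMP antagonist and lies on the X chromosome from 143285674 to 143394262 (ENSMUSG00000031283, minus strand), stood at 32.7 and 114 CPM in controls 1 and 2 and at 36.3 and 33.7 in knockouts 1 and 2. Control 2 alone was high, and the other 3 libraries lay between 32.7 and 36.3 CPM. The log2 fold change of -1.07 (SE 0.58, edgeR adjusted p = 0.410) was 0.064 without control 2. Fst (ENSMUSG00000021765, chromosome 13 from 114452290 to 114458951, minus strand), whose product follistatin neutralises activins and, less tightly, some BMPs, had the same shape. It stood at 14.0 and 45.9 CPM in controls 1 and 2 and at 12.4 and 21.5 in knockouts 1 and 2, and its log2 fold change of -0.82 (SE 0.63, edgeR adjusted p = 0.569) was 0.25 without control 2. Control 2 was also the library with the highest summed CPM of endothelial (1438), Schwann cell (1175) and odontoblast and osteoblast markers (52964). The part of those cells in the high Chrdl1 and Fst values was not tested.

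Grem1, the gene of a BMP antagonist of stromal and limb mesenchyme (ENSMUSG00000074934, chromosome 2 from 113746164 to 113758646, minus strand), had the lowest level of the 9 per kilobase in both group means. It was counted 26 times in control 1, 52 times in control 2, 50 times in knockout 1 and 2 times in knockout 2. The 2 counts of knockout 2 correspond to 0.112 CPM, with an exact 95% Poisson interval of 0.0136 to 0.405 that covers counting error only, while the other libraries stood at 1.81 to 3.31. The knockouts thus differed 22.9-fold from each other, more than the groups did. The log2 fold change of -0.93 (SE 1.35, edgeR adjusted p = 0.794) was -4.41 without knockout 1 and 0.046 without knockout 2.

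**Figure D2:**
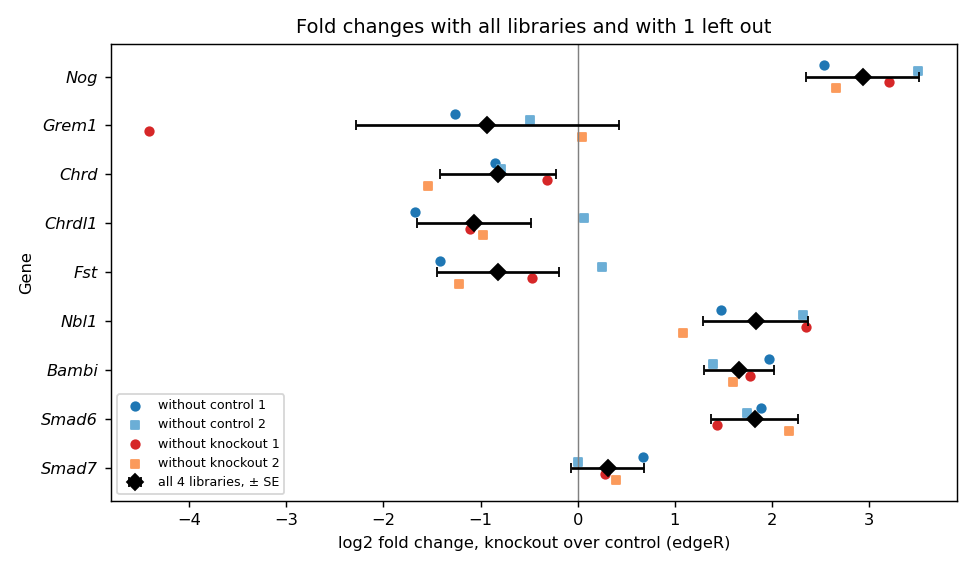
Log2 fold change of each gene, knockout over control, from edgeR with all 4 libraries (black diamonds, bars ± SE) and with each library left out (coloured points). Nog, Nbl1, Bambi and Smad6, whose groups do not overlap, stay above 0 in each case. Grem1, Chrdl1 and Fst, whose groups overlap, cross 0 when 1 library is left out.

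To compare secreted antagonists with each other, CPM was divided by the length of annotated exon in kilobases. On that scale Nbl1 made up 92.1% and 88.3% of the summed level of the 6 antagonists in controls 1 and 2, against 95.0% and 97.2% in knockouts 1 and 2. The sum of the other 5 genes overlapped between groups, at 11.3 and 31.95 CPM per kilobase in controls and 19.99 and 27.2 in knockouts. Its makeup was different. Nog was 10.2% and 7.29% of that sum in controls 1 and 2, against 53.4% and 58.8% in knockouts 1 and 2. Chrdl1 led the controls, with 42.9% and 52.8%, and had 26.9% and 18.4% in the knockouts. Fst made up 27.0% and 31.3% in controls and 13.5% and 17.2% in knockouts. The share of Nog was above both controls in both knockouts, and those of Chrdl1 and Fst were below. Since shares add up to a fixed total, a higher share of Nog goes with lower shares of the rest even where their own levels overlap, as those of Chrdl1 and Fst did. With 2 libraries against 2, an exact two-sided permutation test cannot go below p = 0.333, so none was used for these shares.

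**Figure D3:**
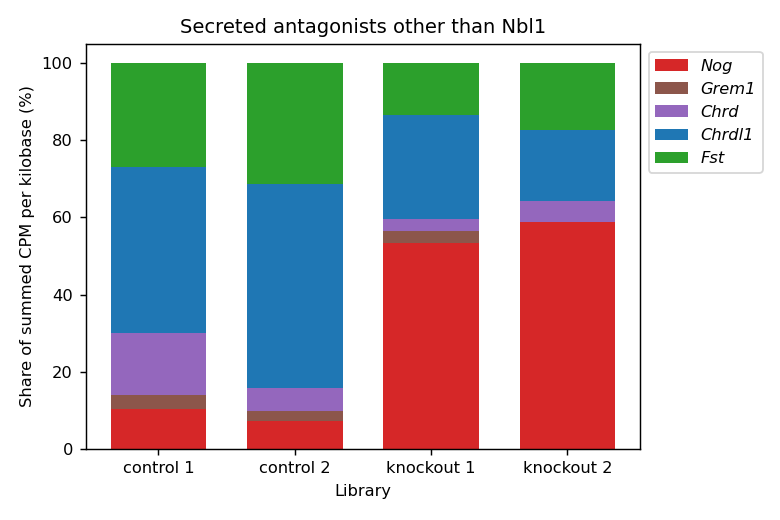
Share of each gene in the summed CPM per kilobase of the 5 secreted antagonists other than Nbl1, in percent, as 1 stacked bar for each of the 4 libraries. Nog takes 10.2% and 7.29% in controls and 53.4% and 58.8% in knockouts.

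Bambi, the gene of the kinase-less pseudoreceptor, had the second highest level of the 9 per kilobase of exon in both group means, after Nbl1. It lies on chromosome 18 from 3507923 to 3516404 (ENSMUSG00000024232, plus strand) and stood at 447 and 310.5 CPM in controls 1 and 2 and at 1107 and 1287 in knockouts 1 and 2. The groups did not overlap, and the lower knockout was 2.48 times the higher control. The level was 3.16-fold higher in the knockout (log2 fold change 1.66, SE 0.36), with an edgeR adjusted p of 0.160 and a DESeq2 adjusted p of 0.00294. Its SE was the smallest of the 9 genes. With 1 library left out, Bambi passed edgeR's test only without control 1 (3.92-fold, adjusted p = 0.0172), and not without control 2 (0.108), knockout 1 (0.0945) or knockout 2 (0.330). Control 1 lay above control 2 for Bambi, as it did for Smad6 and Smad7, and below it for each of the secreted antagonists. Bambi is also known as a target of Wnt/beta-catenin signalling, and a part of that pathway in its level was not tested. Set against Bmpr1a, a type I receptor gene, the ratio of levels per kilobase was 42.6 and 8.32 in controls and 30.8 and 29.6 in knockouts, so the ratio overlapped between groups.

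Of the inhibitory SMAD genes, Smad6 differed between the groups without overlap and Smad7 did not. Smad6 (ENSMUSG00000036867, chromosome 9 from 63953076 to 64022059, minus strand), whose product competes with SMAD4 for SMAD1 and blocks type I BMP receptors, stood at 9.11 and 8.66 CPM in controls 1 and 2 and at 39.0 and 23.8 in knockouts 1 and 2. The controls were nearly equal, and both knockouts lay at least 2.62 times above them. The level was 3.53-fold higher (log2 fold change 1.82, SE 0.45, edgeR adjusted p = 0.165, DESeq2 adjusted p = 0.0126). With 1 library left out, the fold was lowest without knockout 1 (2.70) and highest without knockout 2 (4.52). Smad7 (ENSMUSG00000025880, chromosome 18 from 75367529 to 75395935, plus strand), whose product recruits ubiquitin ligases to type I receptors, stood at 49.8 and 32.7 CPM in controls and 52.4 and 49.7 in knockouts. Control 1 lay within the range of the knockouts. The log2 fold change was 0.31 (SE 0.37, edgeR adjusted p = 0.742), 0.67 without control 1 and 0.0017 without control 2. The difference between the fold changes of Smad6 and Smad7 was not tested by a model. Per kilobase, the ratio of Smad6 to Smad7 was 0.258 and 0.373 in controls 1 and 2, against 1.05 and 0.676 in knockouts 1 and 2, without overlap. Smad6 and Smad7 together, set against the signalling SMAD genes Smad1, Smad5 and Smad9, gave ratios of 1.78 and 1.09 in controls and 1.996 and 1.53 in knockouts, which overlapped.

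**Figure D4:**
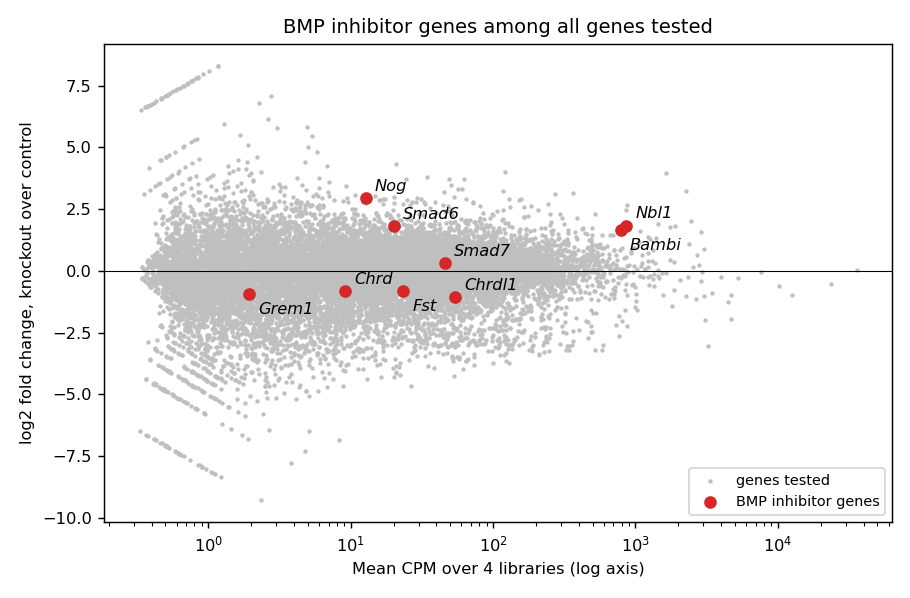
Log2 fold change, knockout over control, against mean CPM over the 4 libraries (log axis) for the 17128 tested genes (grey) and the 9 BMP inhibitor genes (red). Nog, at 2.93, lies near the upper edge of genes of its abundance, and Nbl1 and Bambi, at 1.83 and 1.66, lie among the abundant genes.

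Likeness of pattern was measured as the Euclidean distance between log2 CPM values centred over the 4 libraries, against 14384 other protein-coding genes. Over 4 libraries such distances are a description only. Nearest to Nog was Notum, the gene of a secreted Wnt deacylase (distance 0.21, with 0.973 and 1.78 CPM in controls and 10.1 and 15.0 in knockouts), followed by Scin (0.27). Nearest to Bambi were Dnaaf3 (0.10) and Pacsin3 (0.10), to Smad6 Ifitm3 (0.15) and Scn2b (0.17), and to Nbl1 Irx3 (0.19) and Rflnb (0.22). Nearest to Smad7 were Bin3 (0.033) and Sqstm1 (0.035), to Fst Alox15 (0.048) and Zkscan16 (0.13), and to Chrdl1 Rnf144a (0.11) and Plcb4 (0.19). Galnt17 (0.081) and Rpl3l (0.12) were nearest to Chrd, and Acsl6 (0.15) and Cdh23 (0.20) to Grem1. Within the 9 genes the closest pairs were Chrdl1 with Fst (distance 0.66) and Bambi with Smad6 (0.73). Only 1.06% of the other genes lay closer to Chrdl1 than Fst did, and 2.47% closer to Bambi than Smad6 did. Nog lay 1.29 from Nbl1, and 1.86% of genes were closer to Nog than that.

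The rest of the pathway was read from gene lists by role, and none of their members passed edgeR's test after adjustment. Of 13 other secreted antagonists tested, 5 were higher and 0 lower in both knockouts. Over only 13 genes, the share of higher ones was above the background of 25.8% and that of lower ones below 24.9%. The median log2 fold change was 0.28. Without knockout 1 that median was -0.08 and without control 2 it was 0.83. It was -0.045 in limma-voom and -0.060 with the replicate number as a block. Fstl1, Fstl3 and Twsg1 were among the 5, and so were Cer1 and Vwc2, which had few counts. Cer1 was counted 0 and 9 times in controls 1 and 2 and 20 and 11 times in knockouts 1 and 2. Vwc2 was counted 13 and 0 times in controls and 60 and 55 times in knockouts. Fstl1, a follistatin-like glycoprotein gene abundant in mesenchyme, stood at 636 and 1206 CPM in controls and 1570.4 and 1460 in knockouts. Per kilobase it was at 129 and 246 in controls, close to Nbl1 (131 and 241), and at 319.6 and 297 in knockouts, below Nbl1 (381 and 944). Fstl3, an activin-binding relative of follistatin, stood at 17.5 and 18.0 against 28.1 and 35.4 CPM. Twsg1, which works with chordin, stood at 103 and 157 against 184 and 280.2 CPM. The edgeR adjusted p of Fstl1, Fstl3 and Twsg1 was 0.328 to 0.424. Sostdc1, an antagonist of the dental epithelium and mesenchyme that also acts on Wnt signalling, overlapped (59.6 and 97.7 against 81.9 and 15.97 CPM).

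Other intracellular inhibitors mostly overlapped, with 3 of 14 higher and 1 lower, both under the shares of all tested genes (25.8% and 24.9%). Their median was 0.06, and 0.02 to 0.20 with 1 library left out. Nedd4l, a ubiquitin ligase gene, was the lower one (20.2 and 19.6 against 9.89 and 5.83 CPM, edgeR adjusted p = 0.234). Smurf1 and Smurf2, the ubiquitin ligases that act with SMAD6 and SMAD7, overlapped between groups, as did the SMAD co-repressor genes Ski and Skil. Among the BMP1 and tolloid protease genes, Bmp1 stood at 108 and 143 CPM in controls and 147 and 261 in knockouts. Tll1 overlapped (0 and 3.69 against 5.02 and 3.03 CPM), and Tll2 was lower at a level of 1.95 CPM or less.

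Of 15 tested ligand and inhibin subunit genes, 7 were higher and 3 were lower in each knockout than in each control. Beside the 25.8% and 24.9% of all tested genes, the share of higher ones was above the background and that of lower ones below it. The higher ones were Bmp2, Bmp4, Bmp7, Gdf11 and the inhibin subunit genes Inha, Inhba and Inhbb, so they were not all BMP genes. The lower ones were Bmp6, Bmp15 and Gdf5. The median was 0.57, and it was 0.25 without control 1 and 0.96 without control 2. Bmp7 was at 56.6 and 56.4 CPM in controls and 166 and 170.2 in knockouts (edgeR adjusted p = 0.152). Bmp2 was at 186 and 99.4 against 233 and 341 CPM (adjusted p = 0.290), and Inha, an inhibin subunit gene, at 1.04 and 1.85 against 10.8 and 11.4 CPM (adjusted p = 0.161). The 8 tested genes named Bmp, other than Bmp1, summed to 103 and 109 CPM per kilobase in controls and to 178 and 207 in knockouts. Set against Nog on the same scale, this sum was 89.5 and 46.7 times the Nog level in controls and 16.7 and 13.0 times in knockouts. Both ligand sum and Nog were thus above the controls in both knockouts, and the ratio of one to the other was below the controls in both.

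Of 10 tested receptor and co-receptor genes, 2 lay above and 1 below the controls, both under the background of 25.8% and 24.9%. The median of 0.26 was -0.088 without knockout 2 and 0.76 without control 2. Bmpr2, a type II receptor gene, stood at 10.2 and 26.2 CPM in controls and 43.3 and 41.6 in knockouts (edgeR adjusted p = 0.289). Acvrl1, a type I receptor gene of endothelium, stood at 43.3 and 50.4 against 66.3 and 82.7 CPM. Eng, an endothelial co-receptor gene, was the lower one, at 338 and 394 against 239 and 266 CPM. Of the signalling SMAD genes, Smad9 (1.95 and 5.92 against 13.0 and 14.4 CPM, edgeR adjusted p = 0.242) and Smad5 were higher in both knockouts, and Smad1 and Smad4 overlapped.

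The listed BMP target genes, chosen with earlier results of these data known, all lay on the higher side. All 10 tested (Id1 to Id4, Msx1, Msx2, Dlx3, Dlx5, Atoh8 and Hey1) lay above both controls in both knockouts, against a background of 25.8%, and the median log2 fold change was 1.04. None passed edgeR's test after adjustment, and 8 were higher at an unadjusted p under 0.05 (7.32% of all genes). DESeq2 called 3 higher (Msx1, Msx2 and Dlx5), where it called 2.72% of its genes higher. None of Id1 to Id4 was among the 3 (DESeq2 adjusted p 0.167 to 0.542). All 10 stayed higher with any 1 library left out, which follows from the groups not overlapping and adds no support. Id1, the gene of a helix-loop-helix protein and a direct SMAD target, stood at 151 and 156 CPM in controls and 330 and 224 in knockouts. Id3 stood at 923 and 829 against 1399 and 1319 CPM. Msx2, a homeobox gene, stood at 87.4 and 81.4 against 484 and 359 CPM (edgeR adjusted p = 0.145), Msx1 at 724 and 847 against 2912 and 2525 CPM (adjusted p = 0.150) and Dlx5 at 33.8 and 47.8 against 119 and 93.6 CPM (adjusted p = 0.173). Several of these, among them Msx1, Msx2, Dlx3 and Dlx5, also mark dental mesenchyme. Of 11 tested dental mesenchyme markers, which include Msx1 and Msx2, 9 were higher and 0 lower in both knockouts, and the list summed to 1041 to 1244 CPM in controls and 3434 to 3847 in knockouts. Among chondrocyte markers 6 of 10 were higher and 1 lower, with sums of 717 to 888 against 1926 to 2580 CPM. The part of such cells in the levels of Nog, Bambi, Smad6 and the target genes was not tested.

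**Figure D5:**
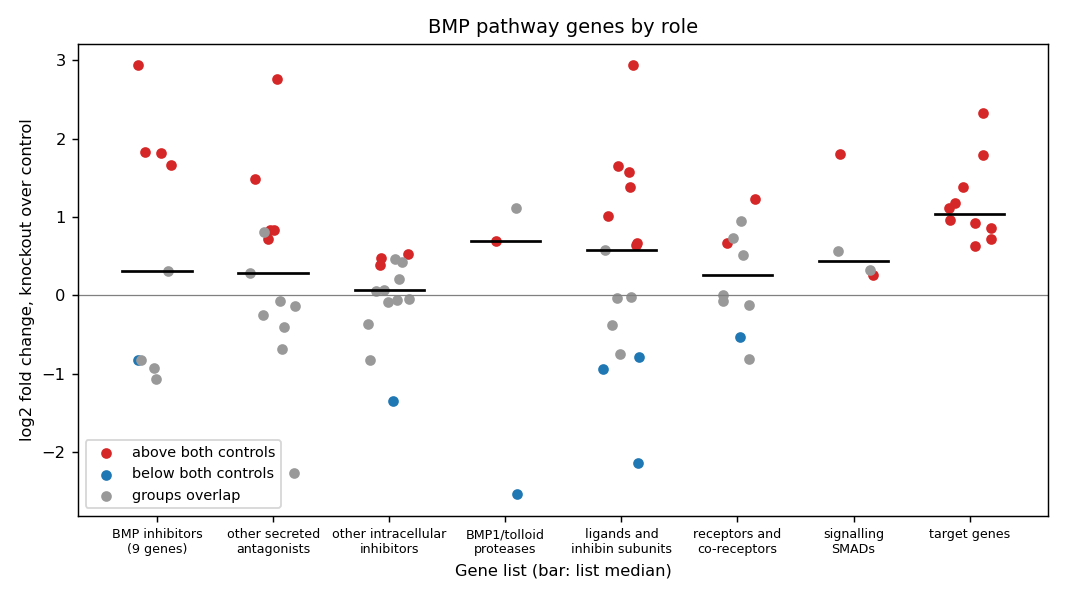
Log2 fold change, knockout over control, of each tested gene by its role in the BMP pathway, coloured by whether both knockouts lay above both controls, below both or neither, with a bar at each list's median. All 10 target genes are above both controls, with a median of 1.04, while the 9 BMP inhibitor genes fall on both sides of 0.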

How the data were processed

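RNA of sorted incisor cells was measured in 4 libraries. Per the labels' protocols, reverse transcription from oligo-dT primers used template switching, and PCR-amplified cDNA was cut with a transposase kit, so strand and single molecules are not marked. The authors deposited whole-number counts per Ensembl gene, not normalised. The submitters' processing notes name the build GRCm38, featureCounts 2.0.1, Bowtie2 2.3.5.1 and Trim Galore 0.6.6. Not given in the sources used here are the annotation release, the strand setting and the treatment of reads with several matches. Groups came from sample titles, and columns were matched to samples by name.

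Symbols, coordinates and exon lengths came from GENCODE M21 (55227 of 55487 IDs matched). The test was edgeR's (4.0.16, R 4.3.3) quasi-likelihood F-test with TMM scaling, filterByExpr and genotype as the only term, two-sided, with Benjamini-Hochberg adjustment over 17128 genes and a threshold of 0.05. CPM uses TMM-scaled library sizes, and an SE is the absolute log2 fold change over the square root of F. The biological coefficient of variation was 49.2%. A count of 3 corresponds to 0.153 to 0.208 CPM. DESeq2 1.42.0, limma-voom (limma 3.58.1), RLE scaling, other filters, a replicate block and leaving out libraries were alternatives. The test code was tested on simulated counts. The 9 genes, the pathway lists and the marker lists were chosen with earlier results of these data known. Named were the 9 genes, Paxip1 and up to 3 genes per pathway list with the smallest edgeR p, plus the 2 genes nearest in pattern to each of the 9. Other list genes given with values were added after their values were seen.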

Additional observations from a re-analysis of the deposited data

How the results depend on the processing

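Nog, Nbl1, Bambi, Smad6, Smad7 and Chrd kept their direction under all 10 alternatives. All of these but Smad7 had groups without overlap, so leaving out 1 library could hardly reverse them. Grem1, Chrdl1 and Fst each reversed under 1 alternative. Grem1 went to 0.046 on the log2 scale without knockout 2, and Chrdl1 to 0.064 and Fst to 0.25 without control 2. With 1 library left out, which leaves a group of 1 assumed to vary like the other, log2 fold changes ranged from 2.54 to 3.50 for Nog, 1.08 to 2.35 for Nbl1, 1.39 to 1.97 for Bambi, 1.43 to 2.18 for Smad6, 0.0017 to 0.67 for Smad7, -1.54 to -0.31 for Chrd, -1.68 to 0.064 for Chrdl1, -1.42 to 0.25 for Fst and -4.41 to 0.046 for Grem1. Nog, Nbl1, Bambi and Smad6 passed in DESeq2 (2.93, 1.84, 1.65 and 1.80) and with edgeR when no low-count filter was set (2.93, 1.83, 1.65 and 1.80). In the latter fit the prior degrees of freedom were infinite, so a gene's own spread did not enter its p. None of the 9 passed in limma-voom, with RLE scaling or with the stricter filter (50 counts in 2 libraries).

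Over all genes, edgeR called 0 higher and 0 lower. Without the filter there were 449 and 1005, in DESeq2 472 and 989, and with 1 library left out 0 to 215 and 0 to 703 (95 and 214 without control 1, 0 and 0 without control 2, 215 and 703 without knockout 1, 15 and 1 without knockout 2). With the replicate number as a block there were 59 and 185, and Nbl1 passed (log2 fold change 1.76, adjusted p = 0.0484). The labels give no pairing beyond the number, and deviations of same-numbered libraries correlated at 0.145, a value that is the same for both numbers by construction. The count of the 9 genes lower without overlap, 1, ranged from 1 to 4 with 1 library left out. Counts of 28 to 62 in the controls limit Nog, and those of 2 to 52 limit Grem1.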
